A study of Mus musculus with 17 samples.

Results

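The cytosolic ribosomal protein genes encode the proteins of the large (Rpl) and small (Rps) subunits of the ribosomes that translate nuclear-encoded mRNAs. They were taken by symbol from the table of counts: symbols that begin Rpl or Rps and go on with a digit, plus Rplp0, Rplp1, Rplp2 and Rpsa, without pseudogene symbols holding -ps and without the Rps6k kinases, and with a mean over all libraries of at least 1 CPM, the counts of a gene per 1000000 counts of its library. Of 27240 genes in the table, 289 fitted the names; 187 were dropped as pseudogene symbols, 10 as kinases and 4 for their low level, which left 88 members, 51 with an Rpl and 37 with an Rps symbol. The member just above the minimum was Rps3a2 with a mean of 1.74 CPM and the gene just below it was Rpl32l with 0.497 CPM; Rpl3l, Rpl39l and Rps12l1 stood lower still at 0.399, 0.191 and 0.0828 CPM. All 88 passed the filter on low counts. Most members are ribosomal proteins, but 5 (Rpl37rt, Rpl6l, Rps3a2, Rps3a3 and Rps4l) have no protein-coding transcript in the GENCODE M21 annotation, and Rps19bp1 encodes a partner protein of Rps19 and not a subunit of the ribosome.

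The libraries are bulk RNA sequencing of CD8 T cells isolated by flow sorting from lung tumours of mice. The donors were WT mice and mice that lack PD-L1 in endothelial cells, the lining of blood vessels (labelled KO), and the cells came from macroscopic nodules, which are enriched for tumour core, or from nodules in the parenchyma, which are enriched for tumour rim. There were 5 libraries of WT core (F164, H719, H873, H876 and a library named pool), 6 of KO core (F219, F318, F319, F322, F86 and O), 2 of WT rim (H874 and H877) and 4 of KO rim (F15, F322, F86 and O). The Cre driver behind the endothelial deletion, the age of the mice and the tumour model are not stated in the labels. The labels do not say which libraries came from separate animals, so p-values measure the spread between libraries, which may be technical in part. Cd274, which encodes PD-L1, was deleted in another cell type, so its level here is no check of the genotype.

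A ribosome holds one copy of nearly every one of these proteins, so cells make them in matched amounts. Their mRNAs begin with a cytosine followed by an unbroken stretch of pyrimidines, the 5′ terminal oligopyrimidine (TOP) motif, through which the kinase mTORC1, by way of LARP1 and the 4E-BP proteins, sets their translation and their stability. T cells enlarge their ribosome pool when they are activated and grow, and mTORC1 is one of the switches of that growth.

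The start of a TOP mRNA is shown for 5 members that were chosen because they carry the motif at their annotated start, among them Rps6, Rps27 and Rps27rt, whose levels are described below. Each is printed as 10 bases before and 20 bases from the RefSeq start site (GRCm38.p6), 5′ to 3′ on the strand of the gene. Capitals mark the run of C and T that begins with a C at the first transcribed base. Rps27rt is shown beside Rps27 because the transcribed parts of the pair are nearly the same letters one base apart.
Rpl15 (chr14:18270967-18270996, minus strand): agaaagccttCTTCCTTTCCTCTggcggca
Rps6 (chr4:86857348-86857377, minus strand): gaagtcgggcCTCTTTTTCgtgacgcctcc
Rps18 (chr17:33955646-33955675, minus strand): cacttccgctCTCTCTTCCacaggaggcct
Rps27 (chr3:90213629-90213658, minus strand): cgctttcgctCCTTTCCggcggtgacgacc
Rps27rt (chr9:114982720-114982749, minus strand): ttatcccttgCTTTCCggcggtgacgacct

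The next 4 are members whose levels did not follow the others, and none has a run of 5 or more at its annotated start.
Rps27l (chr9:66946076-66946105, plus strand): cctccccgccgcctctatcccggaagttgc
Rpl36al (chr12:69184048-69184077, minus strand): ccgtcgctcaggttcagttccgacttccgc
Rpl7l1 (chr17:46782637-46782666, minus strand): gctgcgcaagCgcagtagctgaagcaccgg
Rps19bp1 (chr15:80264287-80264316, minus strand): cggaagtagctcgccgcgtgtgggcggggc

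Start windows were at hand for 64 of the 88 members. On the strand of the gene, a C at the annotated first base followed by C or T to a run of at least 5 stood in 14 of these 64 (21.9 percent) and in 813 of all 27025 genes in the same table (3.01 percent). A run of at least 8 pyrimidines beginning with C anywhere in the 30-base window stood in 24 of 64 members (37.5 percent) and in 2728 of all genes (10.1 percent). RefSeq starts can lie some bases from the start used in these cells, and 9 members have more than 1 annotated start, so a missing run says only that these letters are not at that place. Rplp0, Rpl4, Rpl5, Rpl10, Rpl11, Rpl36a and Rpsa are among the members described below that have no C and T run beginning with C at the annotated first base. All 14 members with the run were among the 60 with a window whose levels moved with those of the other members, and 0 were among the 4 shown above that did not. Most of the 60 lack the run too, so its absence does not set these 4 apart. Rps27l has a second annotated start (chr9:66946403-66946432), gggcttcagggtcactaacgggcctcgcag, which holds no such run either.

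Ribosomal protein transcripts took up about the same part of the library in all 4 groups, and the libraries within a group differed more than the groups did. In WT core the 88 members held 2.83 (F164), 3.05 (H719), 2.71 (H873), 2.48 (H876) and 3.29 percent (pool) of the counts. In KO core they held 2.59 (F219), 1.75 (F318), 4.32 (F319), 2.41 (F322), 2.95 (F86) and 2.45 percent (O). The lowest and the highest of all 17 libraries were thus both KO core libraries. In WT rim the share was 4.15 percent in H874 and 1.97 percent in H877. In KO rim it was 2.87 (F15), 3.202 (F322), 2.33 (F86) and 2.78 percent (O). The group means were 2.87 ± 0.310 percent (SD, n = 5) in WT core, 2.74 ± 0.864 percent (n = 6) in KO core, 3.06 ± 1.54 percent (n = 2) in WT rim and 2.80 ± 0.358 percent (n = 4) in KO rim, and all 4 groups overlapped. Without H874 or H877 the WT rim mean is the other library alone. In bulk samples, fewer cells that make a transcript and less transcript per cell cannot be told apart.

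**Figure D1:**
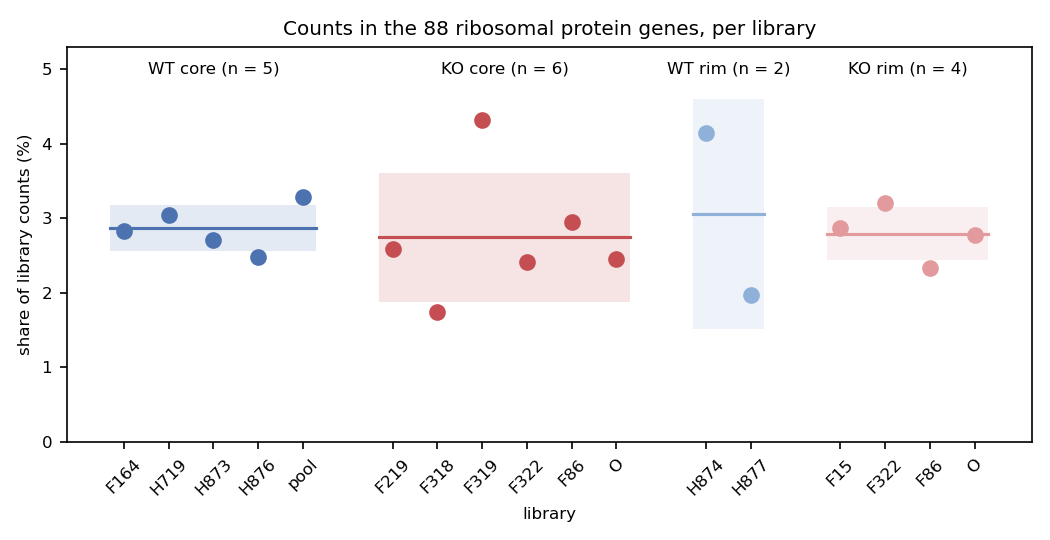
Share of each library's counts in the 88 members (y axis, percent) for the 17 libraries on the x axis, grouped by genotype and site. Lines are group means and shaded boxes 1 SD to either side; KO core spans 1.75 to 4.32 percent and WT rim 1.97 to 4.15 percent, while WT core and KO rim lie between 2.33 and 3.29 percent.

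The members are far from equal in level. Lengths are those of a single coding transcript per gene. A complete one with a CCDS tag was preferred, then one tagged as the principal isoform, then the shortest. Per kilobase, the highest were Rpl4 (1392 CPM per kb), Rps27 (1328 CPM per kb), Rpl32 (1141 CPM per kb) and Rpl13 (1116 CPM per kb), as means over 17 libraries. The median was 348.8 CPM per kb over the 83 members with a coding transcript. The lowest were Rps19bp1 (22.0 CPM per kb), Rps20 (62.7 CPM per kb), Rpl29 (91.1 CPM per kb), Rpl7a (99.6 CPM per kb) and Rpl7l1 (102 CPM per kb). The value for Rps20 rests on an annotated transcript of 3706 bases, the longest of any member, against a median of 681 bases. The median was 298.1 CPM per kb for 49 coding genes with an Rpl symbol and 437.0 CPM per kb for 34 with an Rps symbol, Rps19bp1 included. Ribosomal protein genes have many near-identical copies in the genome, and how reads that fit several copies were counted is not stated in the labels, so the levels of single members are uncertain. The 28 members with 3 or more named pseudogene rows in the table had a median of 338.4 CPM per kb and the 29 without any had 397.7 CPM per kb. The dropped pseudogene rows held between 0.0329 percent (KO core F318) and 0.0847 percent (KO core F319) of the counts, the same libraries that were lowest and highest for the members.

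Nearly all members went up and down together from library to library. On the log2 CPM scale, each member was set against the median of the other 87 over the 17 libraries: the median Pearson r was 0.94, 68 of 88 members had an r of at least 0.9 and 82 had at least 0.7. The share of other genes at these cutoffs was not taken. These r values describe libraries that share depth and scaling, and compositional shifts in a library move all members alike. The library medians ran from 7.19 log2 CPM in KO core F318 and 7.29 in WT rim H877 to 8.37 in KO core F319 and 8.40 in WT rim H874. The next lowest was KO rim F86 at 7.49 and the next highest the WT core pool at 8.14. Rps20, which encodes a small subunit protein, had the highest r (0.985), followed by the stalk protein gene Rplp2 (0.983) and Rpl23a (0.981).

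**Figure D2:**
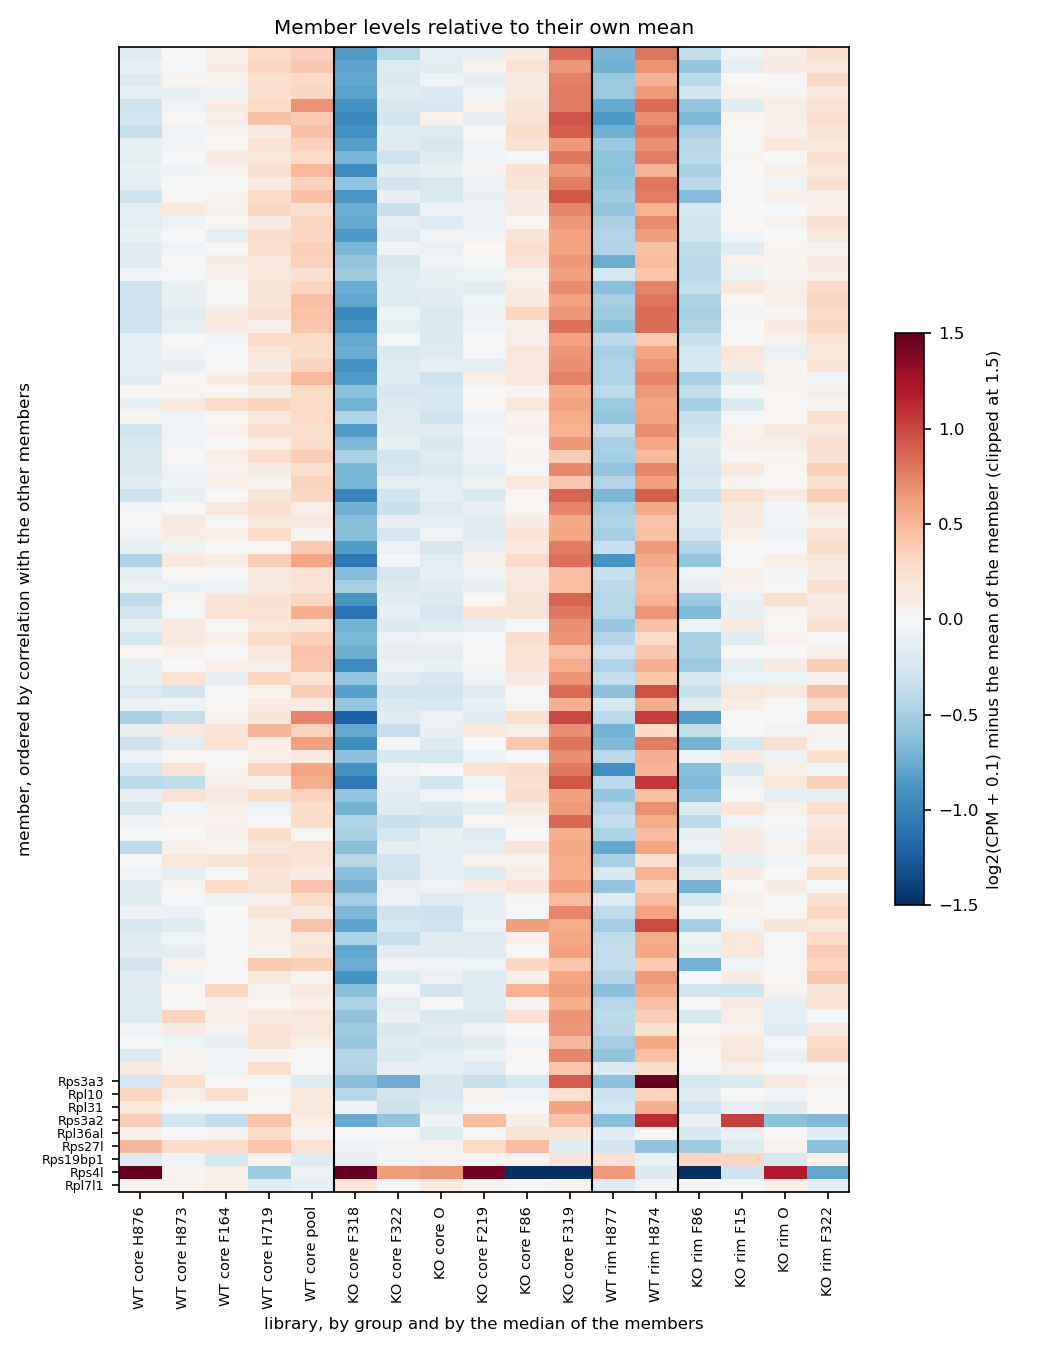
Level of each of the 88 members (rows, ordered by correlation with the other members) in the 17 libraries (columns, grouped and ordered by the median of the members), as log2(CPM + 0.1) minus the member's own mean, with colours clipped at 1.5; names are given for the 9 bottom rows. Columns are nearly uniform from top to bottom, low in KO core F318 and WT rim H877 and high in KO core F319 and WT rim H874, except in the bottom rows.

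The size of this movement was described between the extreme libraries of KO core and of WT rim. These were picked by their member medians, so it follows from the choice that most members differ in that direction. The share over all genes was not taken. Between KO core F319 and F318, 85 of 88 members were higher in F319, 76 of them by more than 2 times, with a median ratio of 2.55. Between WT rim H874 and H877, 85 of 88 were higher in H874, with a median ratio of 2.09. Shorter members differed somewhat more between F319 and F318 but not between H874 and H877. Over the 83 members with a coding transcript, Spearman's rho between transcript length and the slope of a member on the median of the others was -0.318, a description across genes. Among the members that followed the rest, the F319 to F318 ratio had a median of 2.65 for 47 genes under 800 bases, 2.56 for 24 genes from 800 up to 1300 bases and 2.37 for 8 longer genes. The H874 to H877 ratio had medians of 2.10, 2.11 and 2.08 in the same classes. The share of counts in other genes under 1000 bases ran from 7.22 to 9.71 percent and had an r of -0.076 with the member median over 17 libraries. The share in genes over 5000 bases had 0.152, and total counts had -0.29.

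Members of different role moved in this common way but by different amounts. Rplp0, Rplp1 and Rplp2 form the stalk of the large subunit that recruits translation factors. Rplp0 (chromosome 5, 115559467 to 115563729) measured 975.5, 1197, 1004, 1028 and 1116 CPM in WT core F164, H719, H873, H876 and pool, and 936, 709, 1479, 941, 1019 and 905 CPM in KO core F219, F318, F319, F322, F86 and O. WT rim had 1569 (H874) and 737 CPM (H877), and KO rim 1158, 1282, 1097 and 1028 CPM in the order F15, F322, F86 and O. The KO core values enclosed all the WT core values, and the WT rim pair enclosed all the KO rim values. Rplp1 spread more widely: F319 held 3.13 times the level of F318, against 2.08 times for Rplp0 and 2.73 times for Rplp2. Rplp1 had a mean of 195 CPM in WT core, 187 CPM in KO core, 228 CPM in WT rim and 180 CPM in KO rim.

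Rps6, the small subunit protein phosphorylated by S6 kinase downstream of mTORC1 (chromosome 4, 86854099 to 86857367), measured 440, 482, 429, 400 and 503 CPM in WT core F164, H719, H873, H876 and pool. In KO core it measured 391, 323, 673, 353, 474 and 398 CPM in F219, F318, F319, F322, F86 and O. In WT rim it stood at 660 (H874) and 344 CPM (H877), and in KO rim at 500, 551, 426 and 438 CPM in F15, F322, F86 and O. Again F319 and H874 were the highest and F318 and H877 the lowest. Rpl5 and Rpl11, which together with the 5S RNA can bind MDM2 and so stabilise p53, had a mean of 508 ± 41.1 CPM (SD, n = 5) and 242 ± 29.1 CPM in WT core. In KO core they had 466.5 ± 124 CPM (n = 6) and 232 ± 77.5 CPM. Rps27a, made as a fusion with ubiquitin, stood at 209 ± 31.0 CPM in WT core and 196 ± 59.7 CPM in KO core. Rpsa, also described as a laminin receptor precursor, stood at 757 ± 62.7 CPM and 700.3 ± 242 CPM in the same groups. Rpl41, the smallest member protein, stood at 305 ± 38.8 CPM and 272 ± 71.4 CPM. Rps4x, an X-linked small subunit gene, stood at 453 ± 36.5 CPM and 416 ± 154 CPM. For each of these 6 genes the SD between KO core libraries was larger than the difference between the 2 groups.

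The steepest members among those with a coding transcript were Rps27rt, Rps27, Rpl36a, Rps15a and Rps28. Their log2 CPM moved by 1.63, 1.45, 1.44, 1.41 and 1.41 units for each unit of the median of the other members. Rps27 (chromosome 3, 90212667 to 90213648) was 204 CPM in KO core F318 and 816 CPM in F319, a ratio of 4.002, and 327 CPM in H877 and 892 CPM in H874. Rps27rt is a single-exon copy of Rps27 and measured 15.03 CPM in F318 and 69.9 CPM in F319. The 2 genes share most of their letters, as the printed starts show, so part of the reads of one may be counted for the other. Rpl4, the most abundant member, had a slope of 0.645, and Rpl3 of 0.749. The ratio of large to small subunit counts was low in the libraries with most ribosomal protein counts. It was 1.34 in F319 and 1.36 in H874, and 1.54 in F318 and 1.49 in H877; the highest of all was 1.58 in KO rim F86.

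The first comparison asked whether loss of PD-L1 from the endothelium went with another level of ribosomal protein transcripts in core CD8 T cells. By edgeR's quasi-likelihood test with Benjamini-Hochberg adjustment over 20137 genes, 0 of 88 members passed in either direction (0 percent of all genes were called higher and 0 percent lower). The smallest adjusted p of a member was 0.796. At an unadjusted p under 0.05 there was 1 member (1.14 percent), against 1244 genes (6.18 percent) of all tested; DESeq2 and limma voom also called 0 members. Of all genes tested 48.4 percent had a positive log2 fold change (KO over WT), with a median of -0.010. The members had a median of -0.082, with 6 positive and 82 negative. This slight shift rested on single libraries: without KO core F318 the median was 0.031, without F319 -0.22, and among the 12 female libraries it was 0.050. The median standard error of a member was 0.202, more than the size of that shift.

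The member at the unadjusted level was Rpl10, an X-linked large subunit gene that takes part in the last step of subunit maturation (chromosome X, 74270816 to 74273135). It measured 362, 314, 326, 381 and 338 CPM in WT core F164, H719, H873, H876 and pool. In KO core it measured 317, 226, 361, 252, 294 and 258 CPM in F219, F318, F319, F322, F86 and O. The groups overlapped through F219 and F319, and by edgeR KO over WT was -0.27 on the log2 scale (SE 0.119, unadjusted p = 0.0351, adjusted p = 0.796). Rps27l and Rps26 had the next lowest fold changes (-0.23, SE 0.142, and -0.21, SE 0.204). The highest were 0.13 for Rps19bp1 (SE 0.144), 0.088 for Rpl7l1 (SE 0.083) and 0.058 for Rpl3 (SE 0.181), which encodes a protein near the catalytic centre of the large subunit.

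In rim tissue the same question was asked with 4 KO and 2 WT libraries. Again 0 of 88 members passed edgeR's test in either direction (0 percent of all genes called higher, 0 percent lower), with a smallest adjusted p of 0.602 and 1 member at an unadjusted p under 0.05 against 1480 genes (7.35 percent) of all tested. DESeq2 and limma voom called 0 members. Of all genes 50.8 percent had a positive log2 fold change (KO over WT), with a median of 0.011. The members had a median of -0.18, with 7 positive and 81 negative. The 2 WT rim libraries lie near opposite ends of the whole range, and the sign depends on which is used: without H874 the median was 0.44, and without H877 it was -0.57. Rps27 had -0.55 (SE 0.423) and Rps27rt -0.54 (SE 0.478); the largest negative value, -1.66 (SE 0.649, adjusted p = 0.602), belonged to the pseudogene Rps3a3, which measured 9.91 CPM in H874, 1.18 CPM in H877 and between 1.54 and 2.06 CPM in the KO rim libraries. The highest were Rps27l (0.11, SE 0.205), Rpl7l1 (0.081, SE 0.120) and Rpl3 (0.059, SE 0.260).

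Core was then compared with rim within each genotype. In KO mice 0 of 88 members passed (0 percent of all genes called higher, 0 percent lower). All genes had a median log2 fold change (core over rim) of 0.029, with 52.7 percent positive. The members had a median of -0.0080, with 41 positive and 47 negative. At an unadjusted p under 0.05 edgeR gave 1 member against 1600 genes (7.95 percent); DESeq2 and limma voom called 0 members. The median ran from -0.17 without KO core F319 to 0.10 without F318 when 1 library was left out, and was 0.20 among the female libraries. The lowest fold changes belonged to Rpl10a (-0.22, SE 0.212) and Rplp0 (-0.22, SE 0.180). The highest belonged to the pseudogene Rps4l (0.71, SE 0.848), Rps27l (0.39, SE 0.153) and Rpl39 (0.29, SE 0.276), a very small protein that lines the exit tunnel.

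In WT mice genes were called in both directions between core and rim. Of all genes, 2.1 percent were called higher and 1.76 percent lower in core, 777 in all (68 without WT rim H874), and 0 of 88 members passed edgeR's test in either direction. Since members move together, they are not 88 independent tests. At an unadjusted p under 0.05 edgeR gave 2 members (2.27 percent) against 3617 genes (18 percent). DESeq2 called 1 member, Rps27l, among 1907 genes, and limma voom 0. Of all genes 51.7 percent had a positive log2 fold change (core over rim), with a median of 0.033. Over the members the median was -0.12, with 23 positive and 65 negative. As in the genotype comparison in rim, it was 0.50 without H874 and -0.52 without H877. Rps3a3 had -1.64 (SE 0.615, adjusted p = 0.159), a value that turned to 0.57 without H874 and passed without H877 (-2.46, adjusted p = 0.0402). Rps27 had -0.53 (SE 0.406) and Rps3a2 -0.47 (SE 0.655).

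The last test asked whether the genotype effect differed between core and rim, and 0 of 88 members passed (0 percent of all genes in either direction); 0 members were at an unadjusted p under 0.05, against 1547 genes (7.68 percent), and DESeq2 and limma voom called 0 members. Over all genes the median difference (core minus rim) was -0.012, with 49.2 percent positive. For the members it was 0.096, with 71 positive and 17 negative, and was -0.52 without H874 and 0.48 without H877. The lowest values were -0.34 for Rps27l (SE 0.250), -0.21 for Rps26 (SE 0.359) and -0.15 for Rpl10 (SE 0.208). The highest were 1.58 for Rps3a3 (SE 0.811), 0.57 for Rps27 (SE 0.522) and 0.50 for Rps27rt (SE 0.590). These comparisons share libraries, so their fold changes for one gene are not independent.

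**Figure D3:**
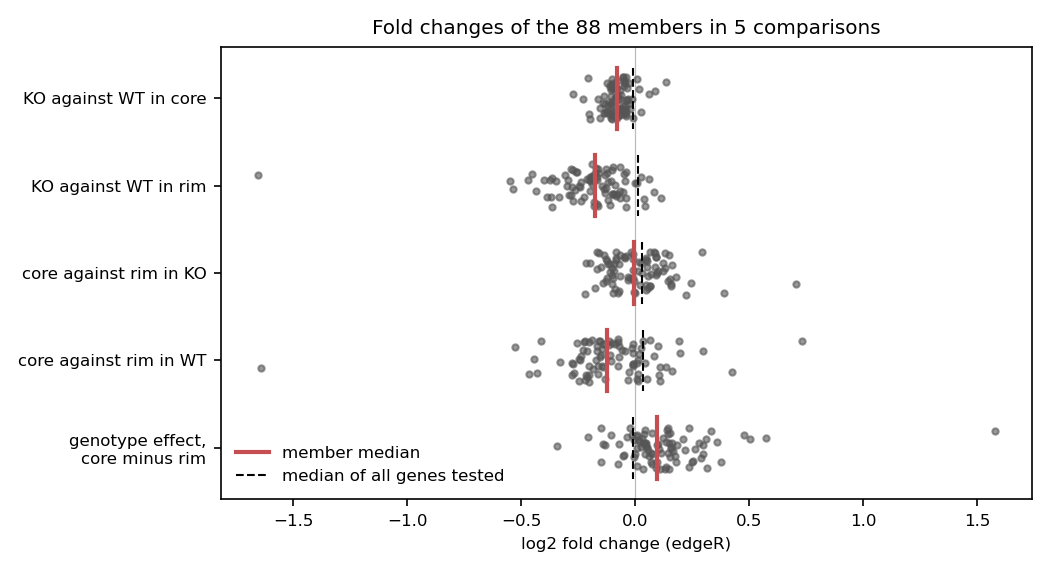
Fitted log2 fold change of each of the 88 members (points; x axis) in the 5 comparisons (rows), with the member median as a red line and the median of all 20137 genes tested as a dashed line. Member medians lie between -0.18 and 0.096, no member passed the test, and the points far from the rest are the pseudogenes Rps3a3 and Rps4l and the gene Rps27l.

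Of the 88, 6 members did not follow the common level (r under 0.7 with the other members), 4 of them protein-coding. Rpl7l1 had an r of -0.489, the pseudogene Rps4l -0.443, Rps19bp1 -0.197, Rps27l -0.073, Rpl36al 0.411 and the pseudogene Rps3a2 0.564. Next came Rpl31 (0.730), Rpl10 (0.736) and the pseudogene Rps3a3 (0.738).

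Rps27l encodes a close relative of Rps27 and is a known target of p53 (chromosome 9, 66944624 to 66949522). In WT core it measured 89.9 (F164), 100.5 (H719), 90.8 (H873), 106 (H876) and 87.2 CPM (pool). In WT rim it measured 49.2 (H874) and 61.4 CPM (H877), below all 5 WT core libraries. In KO core it measured 91.9 (F219), 70.5 (F318), 66.1 (F319), 72.3 (F322), 104 (F86) and 78.3 CPM (O), and in KO rim 65.5 (F15), 49.0 (F322), 51.7 (F86) and 78.6 CPM (O). The KO groups overlapped. The log2 fold change of core over rim was 0.73 in WT mice (SE 0.205, edgeR adjusted p = 0.0581) and 0.39 in KO mice (SE 0.153, adjusted p = 0.620), and the difference between genotypes did not pass (-0.34, SE 0.250, adjusted p = 0.798).

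The WT value lies at the edge of the threshold. It passed by DESeq2 (adjusted p = 0.0110), and by edgeR without KO core F319 (0.0466) or F86 (0.0446), without KO rim F322 (0.0429) or O (0.0422) and without both F318 and F319 of KO core (0.0476), which enter that contrast only through the shared spread and scaling. Without WT rim H874 the adjusted p was 0.478 and the fold change 0.57, and without H877 0.0877 and 0.92. Over the 17 libraries Rps27l had an r of -0.81 with the mean log2 CPM of 14 naive, stem-like and circulating T cell genes and 0.57 with that of 12 activation and exhaustion genes, lists of which 3 and 6 genes were called between core and rim in WT mice. Other lists had values of similar size: 0.80 for CD4 and regulatory T cell, 0.65 for macrophage and 0.64 for neutrophil markers. The mTOR and TOP regulators had -0.74 and the CD8 T cell markers -0.12. What lies behind these relations was not tested.

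Rpl36al arose as a copy of the X-linked Rpl36a and sits on chromosome 12 (69182734 to 69184067). It stayed between 49.3 and 69.7 CPM, a range of 1.41 times, while Rpl36a ran from 44.2 to 167 CPM. As a result Rpl36al stood at 0.39 times Rpl36a in KO core F319 and at 1.28 times in F318. Rpl7l1, a nucleolar relative of Rpl7 that takes part in ribosome assembly, stayed between 116 and 149 CPM, a range of 1.28 times, while Rpl7 ran from 472 to 1043 CPM. Its highest level was in KO core F318, the library with the lowest level of other members. Rps19bp1 stayed between 15.4 and 22.9 CPM. By contrast Rpl22l1, the relative of Rpl22 known for its role in T cell development, followed the others (r of 0.889) and measured 90.5 ± 16.7 CPM (SD, n = 5) in WT core, 83.9 ± 21.5 CPM (n = 6) in KO core, 86.6 ± 31.0 CPM (n = 2) in WT rim and 79.3 ± 21.82 CPM (n = 4) in KO rim. It stood at 0.75 times Rpl22 in WT core and in KO core, 0.84 times in WT rim and 0.79 times in KO rim.

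**Figure D4:**
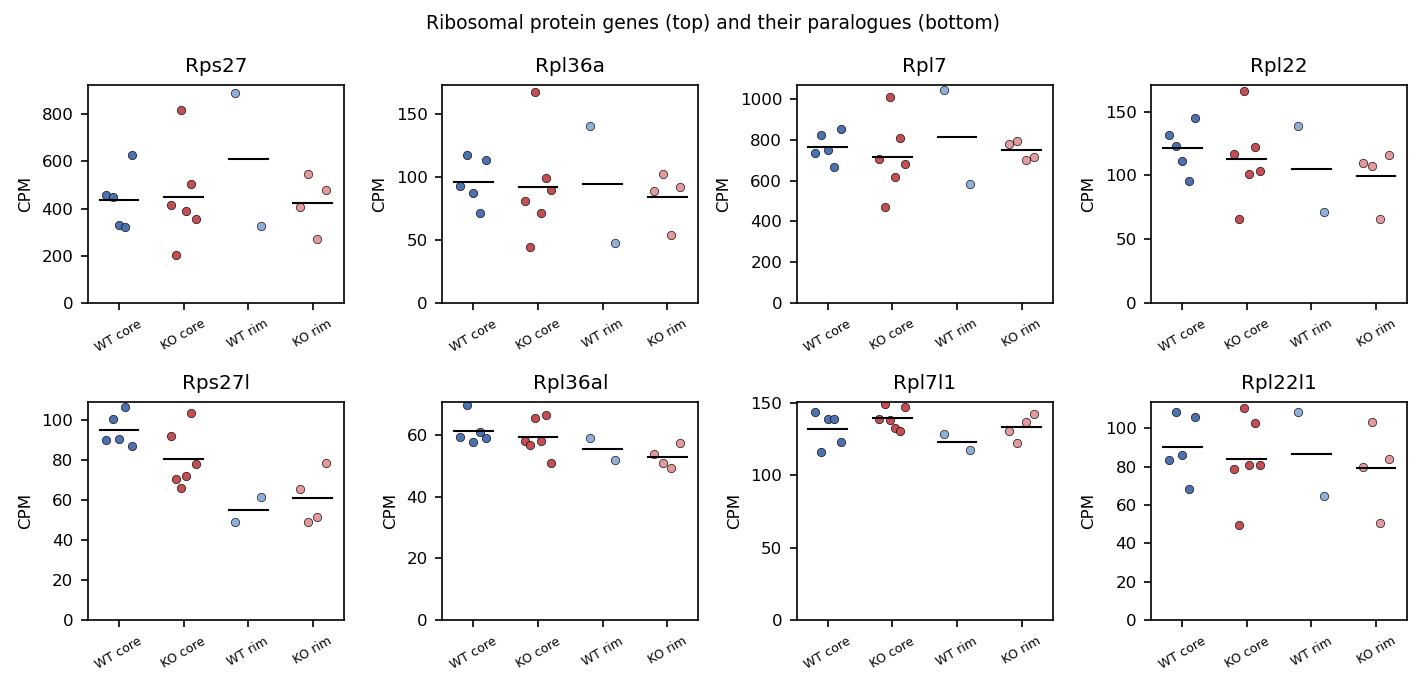
Level in CPM (y axes, from 0) of 4 ribosomal protein genes (top row) and of their paralogues (bottom row) in each library, by group, with the group mean as a line. Rps27, Rpl36a, Rpl7 and Rpl22 spread widely in KO core and WT rim, Rpl36al and Rpl7l1 stay within a narrow band, and Rps27l in WT core (87.2 to 106 CPM) lies above both WT rim libraries (49.2 and 61.4 CPM).

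The pseudogene Rps4l is a copy of Rps4x on chromosome 6 and ran from 0.285 CPM (7 counts) in KO core F86 to 13.8 CPM (393 counts) in WT core H876. It was also high in KO core F318 (9.24 CPM) and F219 (8.28 CPM) and low in KO core F319 (0.891 CPM), with no group standing apart. Members barred by their level were also near 0 in every group: Rpl3l, the form of Rpl3 typical of muscle, had at most 1.48 CPM, and Rpl39l, typical of male germ cells, at most 1.07 CPM.

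Some genes outside the member list followed the same level, in part genes of the same machinery and in part pseudogene rows. Among the 8906 other genes whose mean reached 10 CPM, those with the highest r with the member median over 17 libraries included Rpl23a-ps3 (0.975), Rpl36a-ps2 (0.961), Eef1b2 (0.961) and Gm9794 (0.959). Reads of the members may in part be counted for the pseudogene rows, as the handling of reads that fit several copies is not stated. Eef1b2 encodes a subunit of an elongation factor and ran from 134 to 327 CPM. Without the 2 libraries farthest from the middle, KO core F318 and WT rim H874, its r was 0.941. Fau, whose product is a ubiquitin-like fusion with a small subunit protein, had 0.920, and Rack1, a small subunit scaffold, 0.916. Fau and Rack1 carry a TOP run at the annotated start and Eef1b2 does not, and the 3 starts are shown side by side.
Fau (chr19:6057937-6057966, plus strand): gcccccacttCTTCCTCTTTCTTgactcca
Rack1 (chr11:48800350-48800379, plus strand): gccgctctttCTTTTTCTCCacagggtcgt
Eef1b2 (chr1:63176821-63176850, plus strand): ctgcagttccgccggaagtagccgaggcct

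The pathway lists were set against the member median in the same way. The mean level of 14 elongation factor and other TOP genes had an r of 0.917, with 11 of 14 genes at 0.7 or more. The 50 ribosome biogenesis genes had 0.645 for their mean but 1 of 50 genes at 0.7 or more, and 15 noncoding host genes of small nucleolar RNAs had 0.687 with 3 of 15. The 31 translation initiation factors had 0.262 and the 16 mTOR and TOP regulators 0.463, each with 0 genes at 0.7 or more. Without the 2 farthest libraries these values were 0.878, 0.437, 0.456, 0.463 and 0.144. Spearman's rho was 0.821, 0.522, 0.461, -0.005 and 0.419 in the same order. After the group means were taken out they were 0.920, 0.715, 0.841, 0.344 and 0.615. Differences between the lists were not tested.

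In the fold changes, none of these 5 lists had a called gene in any comparison other than core against rim in WT. There the initiation factors had 2 of 31 genes called higher and 1 lower, with a median of 0.17. Eif3d, a cap-binding subunit of eIF3, measured 212 ± 19.0 CPM (SD, n = 5) in WT core and 151 ± 8.82 CPM (n = 2) in WT rim, which is 0.44 on the log2 scale by edgeR (SE 0.109, adjusted p = 0.0328). Eif2s1, the alpha subunit of eIF2, measured 253 ± 24.1 CPM and 173 ± 9.17 CPM (0.50, SE 0.125, adjusted p = 0.0350). Eif4a2, a helicase, was lower in core, with 290 ± 29.8 CPM and 462 ± 134 CPM (-0.72, SE 0.182, adjusted p = 0.0372).

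Of 50 ribosome biogenesis genes 2 were called lower in WT core and 0 higher, with a median of -0.084. Nop56, a core protein of the box C/D particles that methylate ribosomal RNA, measured 304 ± 21.7 CPM (n = 5) in WT core against 558 ± 233 CPM (n = 2) in WT rim (-0.93, SE 0.199, adjusted p = 0.0191). Taf1d, a subunit of the RNA polymerase I factor SL1, measured 90.1 ± 7.23 CPM and 153 ± 67.4 CPM (-0.82, SE 0.219, adjusted p = 0.0474). Both transcripts host small nucleolar RNAs in their introns. All 15 noncoding hosts of small nucleolar RNAs missed the threshold, 14 with a negative fold change (median -0.54). Of 14 elongation and TOP genes 0 were called, with a median of 0.11, and of 16 mTOR and TOP regulators 0, with a median of -0.25. These calls lie near the threshold. Of 25 alternatives each, Nop56 passed in 23, Eif2s1 in 19, Eif3d in 18, Eif4a2 in 16 and Taf1d in 10. Without WT rim H874 none of the 5 passed (adjusted p of 0.502 for Nop56, 0.777 for Taf1d, 0.579 for Eif4a2, 0.200 for Eif3d and 0.343 for Eif2s1).

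Genes of T cell state were among those called between core and rim in WT mice. Of 12 activation and exhaustion genes 6 were called higher in core, with a median of 1.62; Tnfrsf9, an activation-induced receptor, had 3.61 (SE 0.500), Top2a 2.66, Lag3 2.72 and Mki67 2.25. Of 14 naive, stem-like and circulating genes 3 were called lower, with a median of -1.24: Klf3 (-1.75, SE 0.306), S1pr1 (-1.94, SE 0.307) and Foxp1 (-1.16, SE 0.230). Genes on the marker lists of other cells were called in the same comparison. Of 10 macrophage and monocyte markers 9 were positive and 1 negative, and the complement genes C1qb and C1qc were called higher in core. Of 6 CD4 and regulatory T cell markers 4 were positive and 2 negative. Only Il2ra of these was called (2.10, SE 0.478, edgeR adjusted p = 0.0240), and which cells its reads came from was not tested. C1qb measured 248.8 ± 107 CPM (SD, n = 5) in WT core and 22.0 ± 8.85 CPM (n = 2) in WT rim (3.45, SE 0.848, adjusted p = 0.0328). The summed macrophage markers ranged from 2032 to 6007 CPM in WT core and were 1200 and 2228 CPM in WT rim, and their part in these calls was not tested. The mean level of the activation list had an r of -0.018 with the member median over the 17 libraries (Spearman's rho 0.191), but 0.470 without the 2 farthest libraries. The naive list had 0.386 (rho 0.225), but 0.045 without them and 0.627 after the group means were taken out, so neither relation held across these settings. Of 5 long nuclear RNAs Neat1 was called lower (-1.29, SE 0.171), and their mean had an r of 0.123.

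Markers of CD8 T cells were present in every library, with Cd8a between 743 and 2020 CPM and Cd8b1 between 758 and 1612 CPM. Their summed level (10 genes) ranged from 4908 CPM in WT core H876 to 9945 CPM in H719. Markers of other cells were present too, and some moved with the ribosomal protein level. The summed level of 8 dendritic cell markers ranged from 2543 to 18298 CPM in WT core, 1931 to 8984 CPM in KO core, 2356 to 8381 CPM in WT rim and 2398 to 6051 CPM in KO rim. Their mean log2 CPM had an r of -0.807 with the member median (-0.763 without the 2 farthest libraries), with 8 of 8 markers negative. KO core F319 and WT rim H874, where the members were highest, had 1931 and 2356 CPM of these markers, while KO core F318 and WT rim H877, where they were lowest, had 8984 and 8381 CPM. The order was not strict. WT core H876 had the highest sum at a member median of 7.70 log2 CPM, and KO rim F86, at 7.49, had 2805 CPM. Most of the sum was Cd74 (1274 to 11227 CPM) and H2-Ab1 (539 to 5285 CPM), whose r values were weaker than that of the mean (-0.557 and -0.558). Of the defining markers, Flt3 ran from 2.34 to 193 CPM (r of -0.777) and Siglech from 0.76 to 1373 CPM (-0.653). Xcr1 ran from 7.10 to 81.0 CPM and had the weakest r (-0.421, and -0.296 without the 2 farthest libraries). Clec9a (-0.727) was at 0 in 2 libraries.

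The mean of the 6 natural killer cell markers had an r of -0.737 (-0.576 without the 2 farthest libraries), with 0 of 6 positive. Single markers ran from -0.064 (Eomes) to -0.637 (Klre1), and Klra8 was at 0 in 1 library. Their summed level was 217 to 645 CPM in WT core, 237 to 672 CPM in KO core, 125 to 379 CPM in WT rim and 193 to 381 CPM in KO rim. Fcer1g (60.2 to 469 CPM) and Klre1 (42.7 to 171 CPM) reached the highest levels among them. The 7 fibroblast markers (0.503; each at 0 in at least 1 library) and 6 red blood cell markers (0.594; 5 of 6 at 0 in at least 1 library) went the other way, at summed levels between 0.780 and 134 CPM and between 0.670 and 262 CPM. The 10 CD8 T cell markers had 0.439. Macrophage (-0.049), neutrophil (0.122), B cell (-0.231), endothelial (-0.267), CD4 and regulatory T cell (-0.374) and epithelial (0.026) markers had weaker values for their means. Single markers on these lists were stronger, such as Cd4 (-0.752), Cdh5 (-0.764) and Kdr (-0.702). Of the CD4 and regulatory T cell markers 1 of 6 was positive, and of the endothelial markers 5 of 8. The CD4 and regulatory T cell mean had -0.682 after the group means were taken out, but -0.003 without the 2 farthest libraries. The part of these cells in the ribosomal protein level was not tested.

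**Figure D5:**
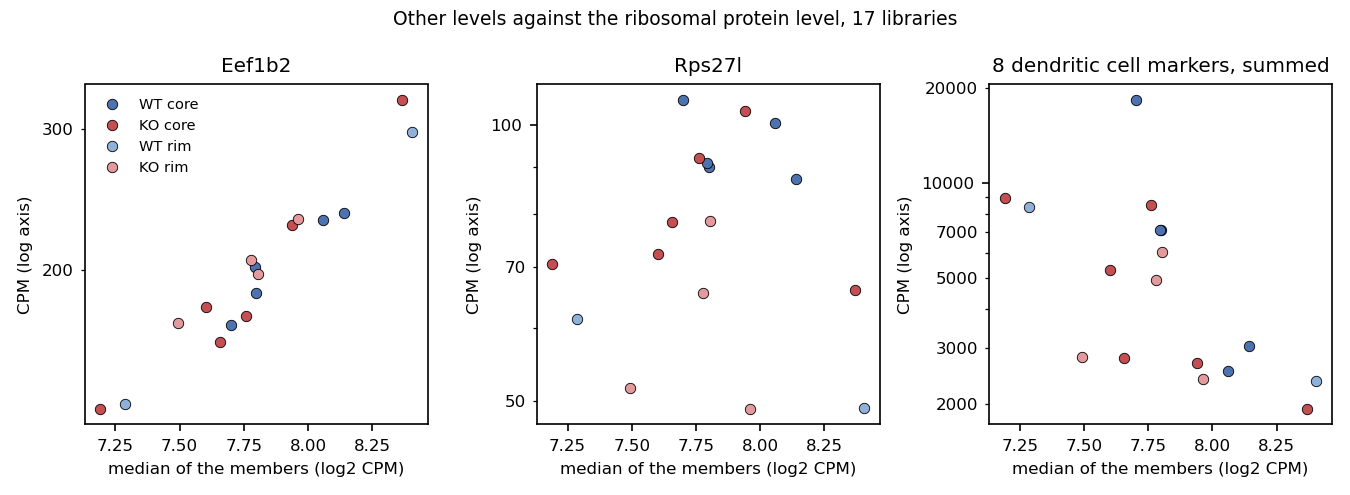
Level in CPM on a log axis of Eef1b2, of Rps27l and of 8 dendritic cell markers summed (y axes) against the median log2 CPM of the 88 members (x axis) in 17 libraries, coloured by group. Eef1b2 (r of 0.961) lies along a line, Rps27l (r near 0) does not follow the member level and is higher in all WT core than in both WT rim libraries, and the dendritic cell markers tend to fall from left to right.

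Totals ran from 21767045 to 32566456 counts per library, so counting error is small for all members but the pseudogenes Rps3a2, Rps3a3 and Rps4l. Reads of Xist and Y-linked genes marked 12 libraries as female, F322 and O of both sites as male and the WT core pool as mixed.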

How the data were processed

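The authors deposited raw read counts per gene symbol for 17 libraries (27240 genes), with no normalization. Per the labels' protocols, RNA came from the Qiagen RNeasy Micro Kit and libraries from the Illumina TruSeq RNA Library Prep Kit. Per the submitters' processing notes, featureCounts (Subread 2.0.0), HISAT2, Bowtie2 2.4.5 and cutadapt 3.2 were used with GRCm38; the settings for strand and multi-mapping reads are not stated there.

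The members and all lists were chosen with earlier results of these data known. Counts were tested with edgeR 4.0.16 in R 4.3.3 (quasi-likelihood F test, two-sided, robust dispersion, TMM scaling, filterByExpr by group) in 1 fit of all 17 libraries, with Benjamini-Hochberg adjustment over 20137 genes and calls at an adjusted p under 0.05. The test was checked on simulated data for core against rim in WT only. Genes were drawn independently there, so the check does not cover members that move together. CPM is per 1000000 of all counts of a library; log2 CPM used TMM scaling and a prior count of 2. Lengths are from GENCODE M21 and starts from RefSeq, both GRCm38. Alternatives were other scalings, no filter, DESeq2 1.42.0, limma voom, female libraries and leaving out each library. Members named with values are the 3 highest and 3 lowest per comparison, the 5 highest and lowest per kb, the 5 most variable against the member median and a fixed list; genes called on the pathway lists are named up to 4 a list. Chosen after their values were seen were the members given for steep or high correlation (Rpl23a, Rps28, Rps15a, Rpl31) and those shown for their start (Rpl15, Rps18); a few genes that the rule takes are not reported here. F322, F86 and O occur in both KO sites, and nothing in the labels ties an identifier to an animal.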

Additional observations from a re-analysis of the deposited data

Results flagged for a closer look

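For the 3 groups with 4 to 6 libraries, the gap between the highest or lowest library and its neighbour was compared with the range of the group (Dixon's test at 95%), for the member share and the named members. Of 111 such groups 9 stood out, where chance gives about 1 in 20 for independent tests. The members move together and several flags share a library, so the 111 are not independent. In KO core, library F319 stood high for Rpl3 (1924 CPM against 1185 CPM in the next), Rpl13 (1381 CPM against 835 CPM), Rpl29 (82.5 CPM against 52.5 CPM) and the pseudogene Rps3a3 (3.603 CPM against 1.59 CPM). In KO rim, library F86 stood low for Rpl22 (66.0 CPM against 108 CPM) and Rpl41 (196 CPM against 276 CPM), and F15 stood high for Rpl7a (96.7 CPM against 90.1 CPM). In WT core, H719 stood high for Rpl36al (69.7 CPM against 60.9 CPM) and H876 for the pseudogene Rps4l (13.8 CPM against 3.198 CPM).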

How the results depend on the processing

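No member passed in KO against WT in core or rim, in core against rim in KO or in the difference between sites under any alternative run, and core against rim in WT was the exception. There 1 member, Rps27l, was called higher by DESeq2 and without both KO core F318 and F319, an alternative chosen after seeing the data; leaving out 1 library gave 0 to 1 members higher and 0 to 1 lower. The member medians kept their sign under the 3 other scalings and without the filter. Leaving out 1 library moved them from -0.57 to 0.44 (KO against WT in rim), from -0.52 to 0.50 (core against rim in WT) and from -0.52 to 0.48 (difference between sites), the ends being the WT rim libraries. Over all genes, DESeq2 called 9 and 268 genes for KO against WT in core and rim, 35 and 1907 for core against rim in KO and WT, and 161 for the difference. Without the filter 2 genes were called for KO against WT in rim and 4 for the difference, and among female libraries 313 for core against rim in WT. Leaving out 1 library gave 0 to 26 genes for KO against WT in rim, 68 to 851 for core against rim in WT and 0 to 14 for the difference. With the identifier as a replicate block, limma voom called 8 genes for KO against WT in rim and 2 for core against rim in KO, and 0 members; its median turned to -0.016 for the difference between sites. A fixed replicate block for F322, F86 and O gave a median of -0.024 and 0 members for core against rim in KO. Deviations of same-numbered libraries had r values of 0.204, 0.021 and -0.0063. These lie within the range of differently numbered pairs, from -0.393 (KO core F219 with KO rim F322) to 0.416 (KO core F219 with KO rim O). The reads gave the same sex at both sites for each identifier. Whether an identifier marks 1 animal is not stated in the labels. The causes were not tested. Depth limits only the pseudogene members.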

Other observations

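Genes that went against the ribosomal protein level over the 17 libraries, chosen by their correlation among the 8906 whose mean reached 10 CPM, were Tyk2 (r of -0.882), P2ry14 (-0.880), Tbc1d8 (-0.861), Gapt (-0.848) and Pik3ap1 (-0.848). Tyk2, a kinase of cytokine receptors, ran from 128 to 288 CPM. P2ry14, a receptor for UDP-sugars, ran from 1.82 to 83.3 CPM, and Tbc1d8 from 2.34 to 272 CPM. Pik3ap1, an adaptor known from B and myeloid cells, ran from 65.7 to 477 CPM. Without KO core F318 and WT rim H874 the r values were -0.846, -0.801, -0.760, -0.781 and -0.753.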
